A study of Drosophila melanogaster with 2 samples.

Results

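DNA replication and S phase genes encode the proteins that copy the genome once per cell cycle. Anti-GFP ChIP-seq peaks at 43 of them were examined, out of 13968 protein-coding genes in the Drosophila melanogaster annotation. The genes were taken by name from a list of 46 symbols, of which 43 stand in the annotation under the listed symbol. The other 3 stand there under newer symbols (lat as Orc3, CDC45L as Cdc45 and RpA-70 as RPA1) and are reported beside the 43. The samples were whole embryos collected 0 to 24 h after egg laying, from transgenic flies with a CG31224-eGFP fusion, in 1 group of 2 biological replicates. Antibody against GFP recovered DNA bound by the fusion, directly or through other proteins. The design has no second group, and the control alignment behind the peak lists was not analysed here. The labels do not say what drives expression of the fusion. Whole embryos mix many cell types and ages, so more bound cells and stronger binding per cell cannot be told apart.

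Replication begins where the origin recognition complex (the Orc proteins) marks DNA. Cdc6 and dup, the fly Cdt1, then load the ring of Mcm proteins, and geminin holds dup in check. The kinase Cdc7 with its activator chif, Cdc45 and the GINS complex turn the ring into a moving helicase. DNA polymerase alpha with primase starts each new strand, RPA covers single-stranded DNA, and replication factor C loads the sliding clamp PCNA for the main polymerases. In flies many of these genes are switched on before S phase by E2f1 with its partner Dp, and several carry the DNA replication-related element (DRE) bound by Dref. Cyclin E drives entry into S phase.

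Sequences under promoter peaks of the group are shown first, because the peaks can then be compared with the E2F and DRE words of the same genes. Each holds a summit, the highest point of a peak as deposited, with 50 bases to each side, written 5′ to 3′ on the strand of the gene, from the RefSeq copy of the dm6 assembly. Only bound members on 2L, 3L, 3R and X are shown, and of those these 4 have the highest signal at a promoter. The promoter peaks of Dp, RnrS and dpa lie on another arm and have higher values than that of CycE, but their sequences are not printed. No such window of a bound member on those arms held an E2F or a DRE word. Capitals mark the only word of those searched that was found in the 4, the 5-base DRE core CGATA.
chif (chr2L:16350349-16350449, minus strand): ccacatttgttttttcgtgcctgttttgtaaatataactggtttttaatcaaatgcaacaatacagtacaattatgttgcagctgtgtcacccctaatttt
Mcm2 (chr3R:8264784-8264884, plus strand): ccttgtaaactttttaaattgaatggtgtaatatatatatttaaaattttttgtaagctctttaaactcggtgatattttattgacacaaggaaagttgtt
CycE (chr2L:15746962-15747062, minus strand): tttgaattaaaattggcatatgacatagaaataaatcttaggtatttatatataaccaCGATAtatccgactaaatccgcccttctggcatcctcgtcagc
PCNA2 (chr2L:19584053-19584153, minus strand): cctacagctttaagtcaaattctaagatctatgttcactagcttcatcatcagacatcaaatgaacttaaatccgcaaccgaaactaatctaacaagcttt

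CG31224-eGFP peaks lay at the promoters of 12 of the 43 members, and were found in 5 of the 6 roles described below. The 12 were Dp, RnrS, chif, Mcm2, dpa, CycE, PCNA2, PolA1, Prim1, Cdc7, dup and PCNA. A gene was counted as bound when a summit of the main peak list lay within 500 bp of any of its transcription start sites (TSSs). The main list was made by the authors from both replicates at an irreproducible discovery rate (IDR) of at most 1%, and held 3810 peaks on the 7 chromosomes used. The bound share was 27.9% of the members (95% Wilson interval 16.8 to 42.7) and 15.5% of all protein-coding genes, or 2168 of 13968. With the 3 renamed genes it was 13 of 46, the added gene being RPA1. In the thresholded list of replicate 1 alone 6 of 43 members were bound, 13.95% (6.56 to 27.3), against 10.5% of all protein-coding genes. In that of replicate 2 alone 9 of 43 were bound, 20.9% (11.4 to 35.2), against 12.3% of all. The members' interval thus lay above the share of all genes in the main list, and contained it in either replicate's own list. It also contained that share in the authors' conservative list (13.15 to 37.7, against 15.3%), at TSS distances of 250 and 1000 bp, and with 1 TSS per gene. The same held for peaks above the median signal. It lay above the share with summits counted only for the nearest gene (11.5%) and by peak interval within 500 bp (16.5%). Only 5 members (Dp, CycE, chif, Mcm2 and dpa) were bound in the lists of both replicates, a count not made over all genes. Of the 12, 6 had a signal value above the main list's median, or 13.95% of the members, against 9.23% of all protein-coding genes. No test was made on this list of genes, which was chosen with results of these data known, and the intervals cover the counting of genes only.

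**Figure D1:**
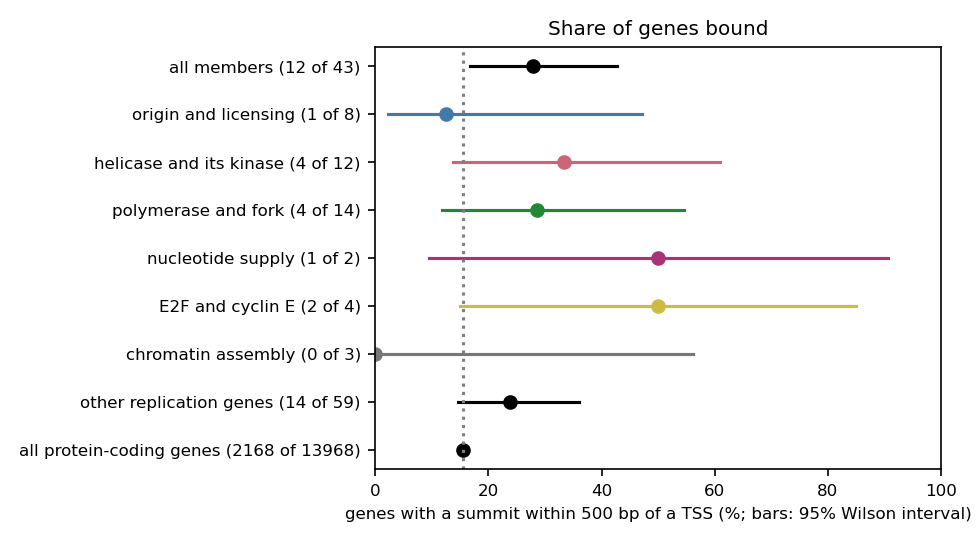
Share of genes with a main-list summit within 500 bp of a TSS (horizontal axis, percent), for all members, each role, other replication genes and all protein-coding genes, with 95% Wilson intervals as bars and the share of all protein-coding genes as a dotted line. The members stand at 27.9% and all genes at 15.5%, and the intervals of the roles are wide because each holds 2 to 14 genes. The interval of every role contains 15.5%.

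The main list gives each peak a signal value, a score set by the authors whose scale is unknown here, and each replicate's ranked list gives the value in that replicate. Values from a single replicate are on the scale of that replicate's list. At bound members they are from the ranked summit within 100 bp of the main-list summit. At unbound members they are from that list's own strongest summit within 500 bp of a TSS. Of 57 such values at members 1, that of RfC4 in replicate 2, was above the pooled value. The only measure of error is the spread between the replicates. Over the 1861 peaks of replicate 1 that overlapped one of replicate 2, the SD of the log2 ratio between them (replicate 1 over 2) was 0.66, around a median of −0.08. At the 6 member peaks in both thresholded lists the median was −0.11, with a range of −0.47 to 0.54. Read depth is unknown.

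Of the 8 origin and licensing genes only dup had a promoter peak in the main list, 12.5%, against 15.5% of all protein-coding genes. The peak of dup (FBgn0000996), at chr2R:15381096-15381431, had a signal value of 55.6, rank 3311 of 3810, and its summit lay 276 bp upstream of a dup TSS. That summit stands in an intron of the neighbouring gene SRPK, whose TSS is closer, at 185 bp. In the ranked lists the value was 32.4 in replicate 2, at an IDR of 1.78%. No ranked summit of replicate 1 lay within 100 bp of the main-list summit, and a wider search was not made there. The peak of dup was in the conservative list but in neither replicate's thresholded list.

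Geminin, the inhibitor of dup, lay just outside the IDR threshold in the pooled ranked list. Its strongest ranked summit had a value of 50.3 at rank 4273 of 98900, an IDR of 1.36% and a position 6 bp downstream of the TSS. The strongest summit within 500 bp in each replicate's own ranked list had 30.7 in replicate 1 and 19.8 in replicate 2. The IDR of these summits was 47.0% in replicate 1 and 80.7% in replicate 2. The lowest value counted as bound was that of PCNA, 51.3, but the main list was cut by IDR and holds lower values, such as 35.1 at CycE. Origin recognition members Orc2 (28.9), Orc6 (29.3), Orc1 (21.4) and Orc5 (20.8), and the loader Cdc6 (29.4), had weak ranked summits, each with an IDR above 50%. Orc4 had none in the pooled ranked list and a value of 12.7 in that of replicate 2. The renamed Orc3 had 19.9.

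Among the 12 genes for the helicase and its kinase 4 were bound, 2 of them subunits of the Mcm ring and 2 the subunits of the kinase that activates it. The kinase activator chif (FBgn0000307) had a promoter peak at chr2L:16350231-16350566 with a value of 131 (rank 1148), and 63.4 in replicate 1 and 62.2 in replicate 2. Its summit, in the window printed above, lay 116 bp upstream of the inner of 2 chif TSSs. Mcm2 (FBgn0014861), a subunit of the ring, had a value of 119 (rank 1325) at chr3R:8264666-8265001, with 54.0 in replicate 1 and 63.9 in replicate 2. The summit lay 136 bp upstream of Mcm2 and 383 bp upstream of RPA1, the large subunit of RPA, which is transcribed the other way. A single peak therefore counts for both genes.

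The gene dpa (FBgn0015929) encodes the fly Mcm4. Its peak at chr2R:7499848-7500183 had a value of 111 (rank 1447), with 51.8 in replicate 1 and 64.5 in replicate 2. The summit lay in the 5′ UTR, 129 bp downstream of a dpa TSS and 131 bp from the TSS of didum. The kinase gene Cdc7 (FBgn0028360) had its promoter peak at chrX:6654458-6654793 with a value of 56.0 (rank 3282), 26.7 in replicate 1 and 29.7 in replicate 2. The promoter peaks of chif, Mcm2 and dpa were in both replicates' thresholded lists, and that of Cdc7 was in neither.

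The other subunits of the ring had lower values or no ranked peak. Mcm5 had a ranked summit at 32.5 and Mcm6 at 21.4, while Mcm3 and Mcm7 had none in the pooled ranked list or in that of either replicate. The GINS genes Sld5, Psf1, Psf2 and Psf3 lay between 17.8 and 26.7. The renamed Cdc45, which binds the ring with GINS, had 36.3. Peaks past the threshold thus fell on 2 of the 6 ring subunits and on 0 of the 4 GINS subunits, against 15.5% of all protein-coding genes. With so few genes these counts do not set the ring apart from GINS.

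**Figure D2:**
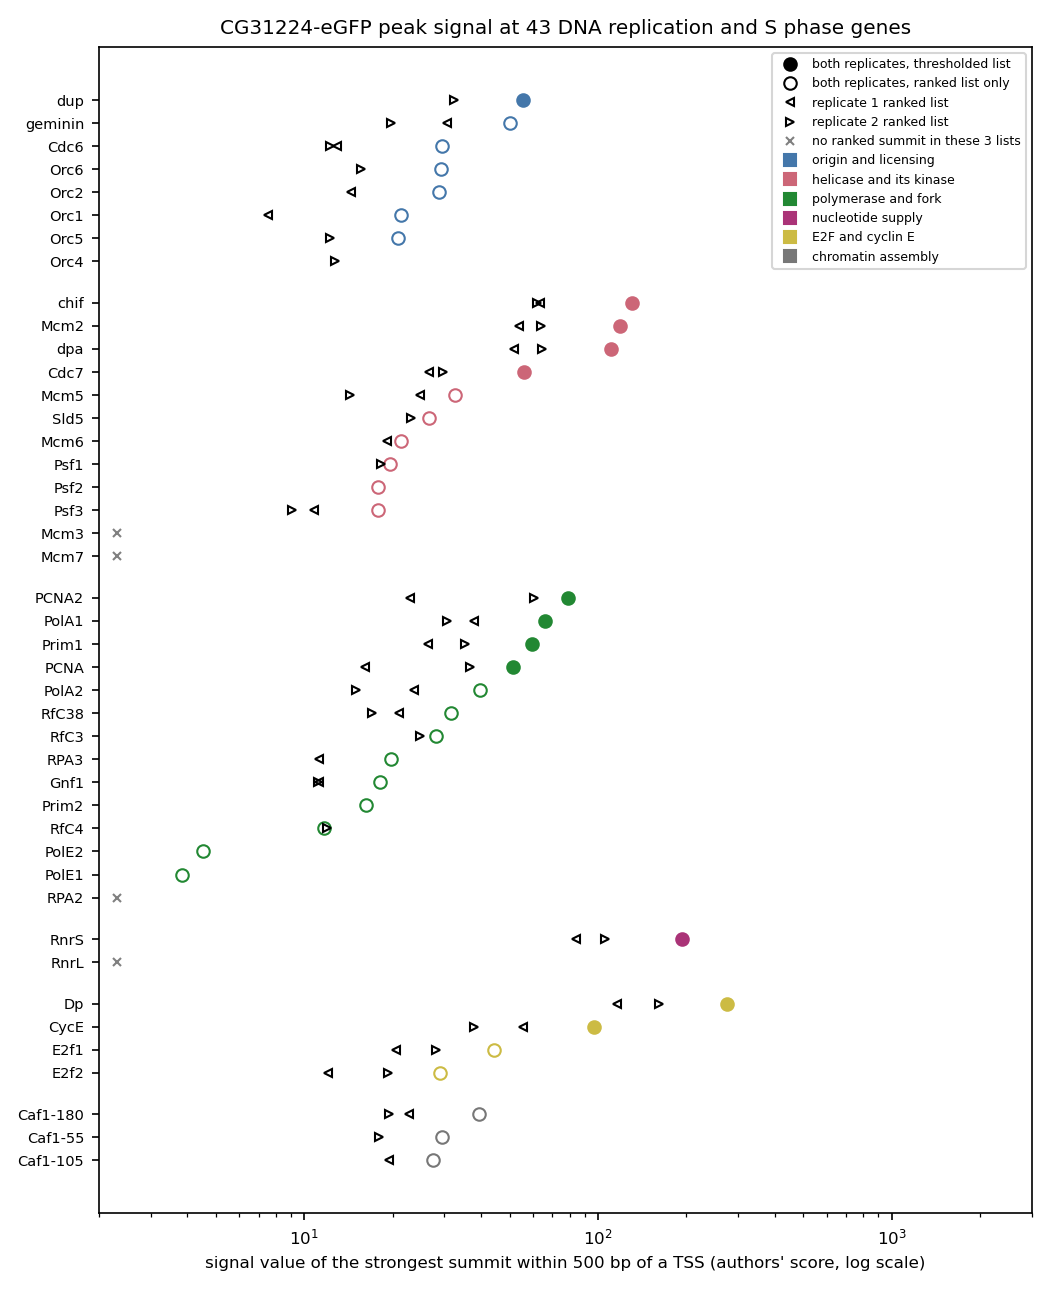
Signal value (horizontal axis, authors' score, log scale) of the strongest summit within 500 bp of a TSS for each of the 43 members, grouped and coloured by role; filled circles are main-list peaks, open circles are summits in the pooled ranked list only, and triangles are the replicates' ranked lists. The bound members run from 51.3 (PCNA) to 274 (Dp), and a cross marks the 4 members with no summit in these lists. Triangles of bound members are summits within 100 bp of the main-list summit, and those of unbound members the strongest within 500 bp of a TSS.

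Of the 14 polymerase and fork genes 4 were bound, all with signal values under the main list's median of 89.1. PCNA2 (FBgn0032813), a paralogue of the sliding clamp, had 79.2 (rank 2209) at chr2L:19583935-19584270, with 23.0 in replicate 1 and 60.7 in replicate 2. PolA1 (FBgn0259113), the catalytic subunit of DNA polymerase alpha, had 66.1 (rank 2747) at chr3R:21671694-21672029, with 37.8 in replicate 1 and 30.6 in replicate 2. Prim1 (FBgn0011762), the small primase subunit, had 59.5 (rank 3087) at chr3L:8340440-8340775, with 26.3 and 35.2 in replicates 1 and 2. PCNA (FBgn0005655), the clamp itself, had 51.3 (rank 3488) at chr2R:20262732-20263067, with 16.1 and 36.6.

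The replicates differed most at the 2 clamp genes, where the log2 ratio of replicate 1 to replicate 2 was −1.40 for PCNA2 and −1.18 for PCNA. Both were absent from the conservative list and from the thresholded list of replicate 1. PolA1 was in the thresholded list of replicate 1 only, and Prim1 in that of replicate 2 only. The summit of Prim1 lay 294 bp downstream of its TSS, in an intron, and nearer to the TSS of CG7083, at 177 bp.

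Unbound genes of the same role included the partners of those bound. PolA2, the second subunit of polymerase alpha, had 39.7 (IDR 9.27%), and Prim2, the large primase subunit, had 16.3. The clamp loader genes had 31.7 (RfC38), 28.1 (RfC3), 18.1 (Gnf1) and 11.7 (RfC4). RPA3 had 19.7. PolE1, the catalytic subunit of polymerase epsilon, and its partner PolE2 had 3.83 and 4.52, the lowest of all members with a ranked summit. RPA2 had none in the main pooled ranked list and 13.6 in the other pooled list.

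Of the pair that forms ribonucleotide reductase, the enzyme that makes deoxyribonucleotides, RnrS (FBgn0011704, the small subunit) was bound and RnrL (the large subunit) was not. RnrS had a value of 193 (rank 651) at chr2R:11985445-11985780, the second highest of the members' promoter peaks, with 84.3 in replicate 1 and 106 in replicate 2. The peak was in the thresholded list of replicate 2 only: in replicate 1 its ranked IDR was 80.2%, in spite of rank 826 of 58257 by signal. RnrL had no ranked summit within 500 bp in the pooled list or in that of either replicate.

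Dp (FBgn0011763), the partner of both E2F proteins, carried the highest promoter peak of the members and was the only member with 2 counted summits. The first, at chr2R:13223295-13223473, had a value of 274 (rank 377), 116 in replicate 1 and 161 in replicate 2. It lay 209 bp upstream of a Dp TSS, inside an intron of a longer Dp transcript. The other, at chr2R:13223796-13224131, reached 125 (rank 1234), or 63.6 in replicate 1 alone and 58.1 in replicate 2 alone. It lay 373 bp downstream of the same TSS. Cyclin E (CycE, FBgn0010382) had 96.7 (rank 1735) at chr2L:15746844-15747179, with 55.4 in replicate 1 and 38.0 in replicate 2, 402 bp upstream of an internal TSS. Both genes were in each replicate's thresholded list. The E2F genes themselves were not bound: E2f1, the activator, had a ranked value of 44.3 (IDR 3.35%) and E2f2, mainly a repressor, 29.1 (IDR 79.6%).

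The 3 chromatin assembly genes encode CAF-1, which places histones on new DNA, and none had a promoter peak in the main list. Caf1-180 had a ranked value of 39.4 (IDR 16.3%), Caf1-55, a histone-binding subunit shared with other complexes, 29.5, and Caf1-105 27.4.

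Set in order, the 12 bound members ran from Dp at 274 down to PCNA at 51.3, a 5.35-fold range or 2.42 on the log2 scale. No member differed from the next in this order by more than the replicate SD of 0.66 over overlapping peaks. With replicate peaks matched by summits within 100 bp the SD was 0.45, and 2 of the 11 steps passed it, those between RnrS and chif (0.56) and between Dp and RnrS (0.51). Among the 11 bound members with a ranked value in each replicate, 41 of 55 pairs stood in the same order in both. Sorting by value itself makes neighbours close and the ends far apart, so these steps cannot tell which members differ. The SD is also that of a replicate ratio at single peaks, not the error of a difference between members. The 13 counted summits had a median of 96.7, beside 96.1 over the 1725 main-list summits within 500 bp of a coding TSS. Among those 1725, the members ran from the percentile 8.12 (PCNA) to 89.5 (Dp).

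**Figure D3:**
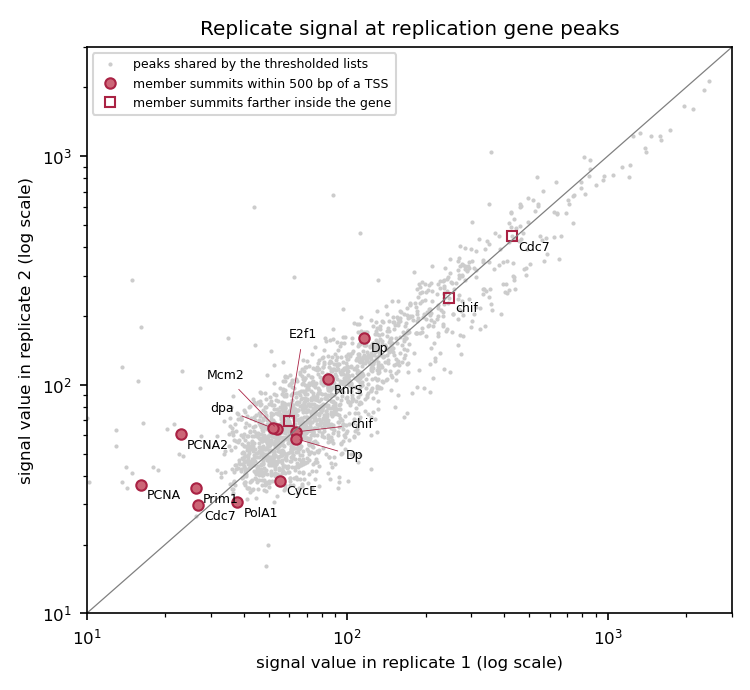
Signal value in replicate 1 (horizontal) and replicate 2 (vertical), both log scale; grey points are peaks shared by the replicates' thresholded lists, filled circles are member summits within 500 bp of a TSS and open squares are member summits farther inside the gene, with values from the ranked lists. PCNA2 and PCNA lie farthest from the line of equal values among the members.

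The strongest peaks in members were not at promoters. In an intron of Cdc7, 1810 bp downstream of the nearest Cdc7 TSS, a peak at chrX:6656339-6656627 had a signal value of 874, rank 66 of 3810, and replicates 1 and 2 gave 429 and 447. Its kinase partner chif had an intronic peak at chr2L:16351095-16351381 with 487 (rank 164), 245 in replicate 1 and 240 in replicate 2, at 962 bp from the nearest chif TSS and also inside an intron of Hyls1. Both peaks were in the thresholded list of each replicate, and both exceeded their gene's promoter peak in each replicate. E2f1, with no promoter peak, had an intronic peak of 129 (rank 1173) at chr3R:21627798-21628133, with 59.7 and 69.1 in replicates 1 and 2, 4727 bp downstream of the nearest TSS. A weak main-list peak of CycE at 35.1 (rank 3641), 650 bp from the TSS, overlaps its counted peak, and each replicate's thresholded list has 1 peak over both.

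In all, 4 of 43 members (Cdc7, chif, E2f1 and CycE) had a main-list summit inside the gene and over 500 bp from each of its TSSs, 9.30%, against 6.89% of all protein-coding genes. Median gene length was 2509 bp for the members, 15380 bp for these 4 and 2164 bp for all protein-coding genes, and the part of length in the count was not tested. These positions were looked at after their values were seen. The same windows of the 2 kinase-pair summits are given for comparison with the promoter windows, on the strand of the gene. Capitals mark the DRE core, here on the other strand of Cdc7.
Cdc7 intron (chrX:6656439-6656539, plus strand): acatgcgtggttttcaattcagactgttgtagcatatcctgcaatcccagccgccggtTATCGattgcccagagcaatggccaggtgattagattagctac
chif intron (chr2L:16351195-16351295, minus strand): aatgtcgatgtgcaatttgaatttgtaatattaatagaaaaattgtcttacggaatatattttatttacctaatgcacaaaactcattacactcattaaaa

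The 31 members without a promoter peak in the main list were looked up in the longer ranked lists, which hold weak and irreproducible peaks. A ranked summit within 500 bp was found for 26 of the 31 in the pooled list, beside 64.5% of the 11800 protein-coding genes without a main-list summit. In the ranked list of replicate 1 it was 15 of 31 (49.1% of those genes) and in that of replicate 2 it was 18 of 31 (49.5%). The median value of the 26 was 27.1, with a range of 3.83 to 50.3, and that of all such genes was 24.6. Of the 26, 17 had an IDR above 50% and 3 (geminin, E2f1 and PolA2) had one of at most 10%. Mcm3, Mcm7 and RnrL had no summit in the pooled list or either replicate's list, and RPA2 appeared only in the other pooled list. Neither the IDR counts nor that of members without a summit in these lists was made over all protein-coding genes. A missing summit in these lists does not show that binding was absent.

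Most member summits, like most coding promoter summits, lay upstream of the nearest TSS, taken for members as the nearest of their own. Of the 13 member summits 10 (76.9%) lay upstream of the member's nearest TSS. Of the 1725 coding promoter summits 1379 (79.9%) lay upstream of the nearest coding TSS. Among the 10, that of Cdc7 stands in the annotated 5′ UTR of Cdc7. Those of Dp, chif and CycE stand in introns of their own genes, so these summits lie downstream of an outer TSS. The median member position was 113 bp upstream. A further coding gene's TSS lay within 500 bp of 7 of the 13 summits, and such a shared position held for 37.0% of the 1725. For 2 of the 13, at dup and Prim1, the other gene's TSS was the nearer.

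The arrangement of neighbouring genes bears on the count of bound genes, because a single summit between close TSSs of different genes counts for each of them. The shares given next are therefore not independent of the counting rule. A coding TSS on the opposite strand within 1000 bp upstream was present at 8 of the 12 bound members (66.7%) and 17 of the 31 unbound members (54.8%). Over all protein-coding genes it was present at 63.9% of the bound and 31.1% of the unbound. The part of this arrangement in the members' bound share was not tested.

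**Figure D4:**
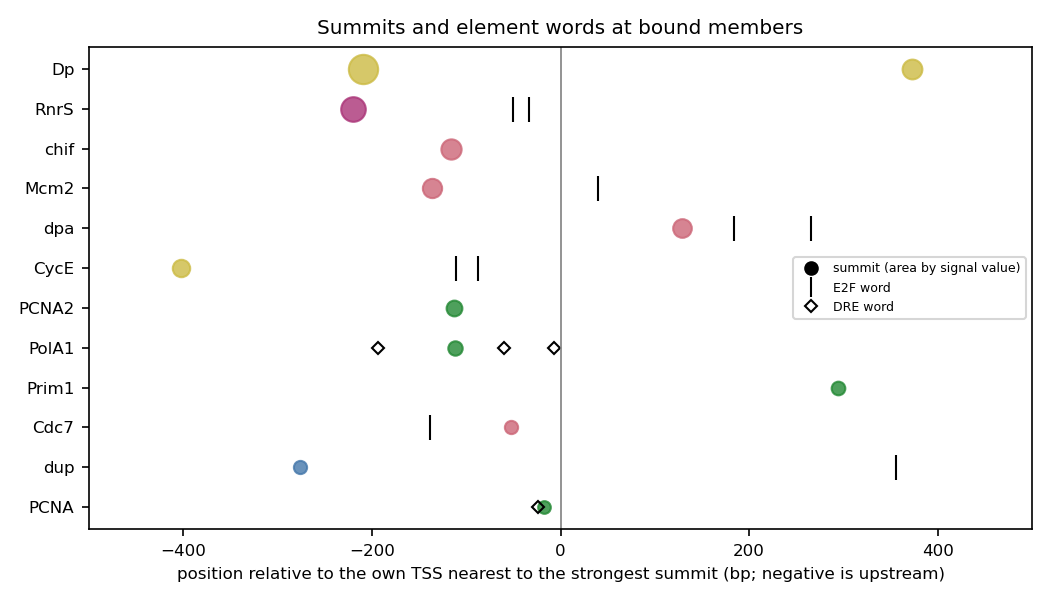
Positions of the 13 counted summits at the 12 bound members (circles, area in proportion to signal value, coloured by role) and of E2F words (bars) and DRE words (diamonds), in bp from the own TSS nearest to the strongest summit, with negative values upstream; only words in the genes' promoter windows and within 500 bp are drawn. The summit of PCNA lies 6 bp from the centre of a DRE word, and the summits of RnrS, Mcm2 and CycE lie upstream of their E2F words.

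The members' promoters held E2F words in 21 of 43 cases (48.8%) and DRE words in 12 of 43 (27.9%), against 8.71% and 10.2% of all protein-coding genes. Promoters were taken as 250 bp before to 50 bp after each TSS, and words were searched on both strands. The E2F words were TTTCCCGC, TTTCGCGC, TTTGCCGC and TTTGGCGC, and the DRE word was TATCGATA, which contains the DRE core CGATA. E2F words stood in the promoters of 6 of 12 bound members and 15 of 31 unbound members (48.4%). DRE words stood in 3 of 12 and 9 of 31 (29.0%). A match describes the sequence and is not evidence of a bound site.

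**Figure D5:**
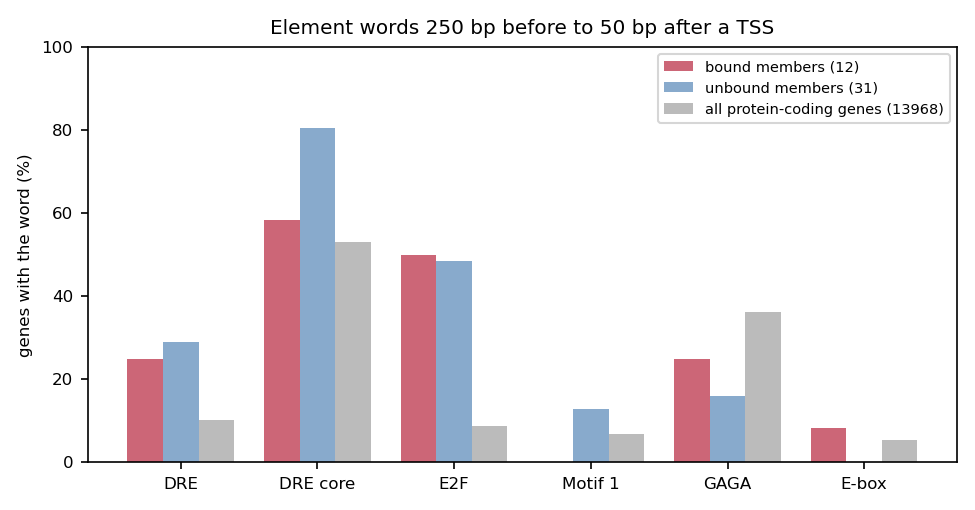
Percent of genes (vertical axis) with each word from 250 bp before to 50 bp after a TSS, for 12 bound members, 31 unbound members and all 13968 protein-coding genes. E2F words reach 50% of bound and 48.4% of unbound members, against 8.71% of all genes.

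Of the 9 E2F words in the promoters of bound members 3 lay wholly inside a counted peak, at dpa and Cdc7. None of the 13 summits had an E2F word within 50 bp, and 1.62% of the 1725 coding promoter summits had one. Within 100 bp 3 of the 13 had one, against 3.42% of the 1725. The nearest word was 55 bp from the summit of dpa. Prim1 had one at 67 bp from its summit, outside its promoter window. The word of Cdc7 was 85 bp, that of Mcm2 175 bp and those of CycE 291 and 314 bp from their summits. The E2F words of RnrS lay 169 and 186 bp from the summit, and that of dup 631 bp, at its other TSS. The sites on 2L, 3R and X are printed as 30 bases on the gene's strand, with the E2F word in capitals. Of the 15 unbound members with E2F words, Mcm3, Mcm5 and RnrL are added, singled out after their values were seen.
Cdc7, bound (chrX:6654526-6654555, plus strand): ggaaaagcgatTTTCCCGCcaaaccagggt
Mcm2, bound (chr3R:8264995-8265024, plus strand): ttagcaaacatTTTCCCGCgcattttcgca
CycE, bound (chr2L:15746706-15746735, minus strand): ttgttgcatttTTTGGCGCttcggatccgc
CycE, bound (chr2L:15746683-15746712, minus strand): gatccgcctgtTTTGGCGCgttcctcatgc
Mcm3, unbound (chrX:5323838-5323867, plus strand): cacactacgctTTTCCCGCgaaaaaacttt
Mcm5, unbound (chr3R:10788545-10788574, plus strand): cggtaattttgGCGGCAAAatattcgcaca
RnrL, unbound (chr2L:10327892-10327921, minus strand): gcaacaatcaaTTTGCCGCctcttgtgaaa
RnrL, unbound (chr2L:10327923-10327952, minus strand): aatgactttaaTTTGGCGCctttttgtgct
Bound Mcm2 and unbound Mcm3 carry the same E2F word, with a summit value of 119 at Mcm2 and no ranked summit at Mcm3. This pair was picked after its values were seen, and the E2F word of Mcm2 lies outside its peak.

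The DRE word was found within 50 bp of 1 of the 13 member summits, that of PCNA, where its centre lies 6 bp away, against 2.96% of the coding promoter summits. PolA1 has 3 DRE words, at 52, 81 and 105 bp from its summit, and that of chif lies at its outer TSS, 2225 bp from the summit. The sites of PolA1 show the same 8 bases in different flanks, with the DRE word in capitals.
PolA1 (chr3R:21671929-21671958, minus strand): gcgctgccaccTATCGATAtattaccactc
PolA1 (chr3R:21671795-21671824, minus strand): cttaacgacacTATCGATAttacattgcaa
PolA1 (chr3R:21671742-21671771, minus strand): cgtagctctgtTATCGATAtgttcccgcca
The DRE core was within 50 bp of 2 summits (CycE and PCNA), against 19.6% of coding promoter summits. Of the other words searched, Motif 1 (GGTCACACT), the GAGA word GAGAG and the E-box CACGTG were at none of the 13, against 0.464%, 9.80% and 1.04%. In the promoters these 3 words were found in 4, 8 and 1 of 43 members, against 6.77%, 36.3% and 5.33% of all protein-coding genes, and the DRE core in 32 of 43, against 53.1%. GC content of such windows was 34.7% at the median over the 13 member summits and 32.7% over the coding promoter summits.

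Other genes that act in replication and S phase, 59 of 68 listed symbols found in the annotation, gave a bound share of 23.7%, or 14 genes, against 15.5% of all protein-coding genes. In the list of replicate 1 alone the share was 11.9%, against 10.5% of all, and with each summit counted only for the nearest gene it was 13.6%, against 11.5%. At the fork PolD2, a subunit of polymerase delta, had 285, Top1, the topoisomerase, 180, Ctf4 77.2 and the helicase RecQ5 72.3, making 4 of 17. The checkpoint kinase genes mei-41 (277) and tefu (94.3), the replication suppressor SuUR (143), the mitotic kinase Cdk1 (75.8) and the cyclin-degradation factor fzr (65.5) made 5 of 20 cyclins and regulators. Dref, whose product binds the DRE, had 126, and the histone chaperone gene Nasp 58.8, which made 2 of 3 in the remaining class. The chromatin genes dre4 (86.2) and mxc (65.0) were 2 of 7, dUTPase (85.4) 1 of 4 nucleotide genes, and 0 of 8 genes of the E2F and dREAM complexes were bound. In this last class mip130 had a ranked value of 72.0 and was in the conservative list only. The summits counted for mei-41, tefu, SuUR, RecQ5, Ctf4 and Nasp lay nearer to the TSS of another coding gene. None of these genes was bound when each summit counted only for the nearest gene.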

How the data were processed

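The members and the other lists of genes and words were chosen with earlier results of these data known. Anti-GFP ChIP-seq of 2 biological replicates was analysed from 8 peak lists in dm6 coordinates. Per the labels, sonicated chromatin ran from 200 to 800 bp. No source used here names the aligner or peak caller. Per the deposited description files, the lists derive from the replicates' alignments and a control. The deposited signal value is a score given to each peak by the authors, of unstated scale, used only to describe and rank peaks. The deposited IDR score is at least 830 in the thresholded lists, an IDR of at most 1%. Ranked lists were deposited with −log10 IDR values, converted here to percent. The main list held 3815 peaks, 5 of them on unplaced scaffolds and left out. For main-list peaks, replicate values are those of the ranked summit within 100 bp of the main-list summit. For unbound members they are those of the strongest ranked summit within 500 bp of a TSS. That summit was taken in each list apart, so it need not be at the pooled summit.

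Ensembl release 115 (BDGP6.54) gave the TSSs, and RefSeq's copy of dm6 the sequence. Every member is named by rule. Of other genes, the bound replication genes were named, and those with a TSS nearer to a member's summit; further neighbours, and Mcm3, Mcm5, RnrL, mip130 and the farther summits, were singled out after their values were seen. The annotated symbols of 3 genes came from RefSeq synonyms. Counting was tested on simulated peaks with known positions. Python 3.11.15, pandas 2.3.3, numpy 2.4.6 and statsmodels 0.14.6 were used.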

Additional observations from a re-analysis of the deposited data

How the results depend on the processing

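Of 98 alternative values 67 stayed close to the reported value and 31 did not. Close meant within 1.5 times for a count. For the median replicate ratio it meant within the SD of that ratio over the 6 member peaks, 0.367. A close count does not speak to the share of all genes at that setting. Some counts could not move, as the 0 of chromatin assembly genes stays 0 in any subset of the main list. The bound members were 6 (13.95%, against 9.23% of all protein-coding genes) when only peaks above the list's median signal were used. They were 5 when both replicates' lists had to hold the peak, a setting chosen after seeing the data and not counted over all genes. With either replicate left out they were 6 to 9, against 10.5% to 12.3% of all protein-coding genes. Bound origin and licensing genes were 0 at 250 bp, 0 above the median signal, 0 when a summit counted only for the nearest gene, and 0 to 0 with a replicate left out. Polymerase and fork genes were 2 in the conservative list, 0 above the median signal and 1 to 3 with a replicate left out. Nucleotide supply genes were 0 to 1 with a replicate left out. E2F and cyclin E genes were 1 at 250 bp and 0 with 1 TSS per gene. Other replication genes were 6 above the median signal, 8 by nearest gene only and 7 to 10 with a replicate left out. The shares of all protein-coding genes bound were 12.4% at 250 bp, 9.23% above the median signal and 11.5% by nearest gene only. They were 13.5% with 1 TSS per gene and 15.3% in the conservative list. Ranked summits were found for 16 of the 31 unbound members at 250 bp, against 46.2% of all genes without a main-list summit. With a replicate left out they were found for 15 to 18, against 49.1% to 49.5%.

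Within 100 or 150 bp of the 13 summits, in place of 50 bp, the DRE was found at 2 and 2, against 6.2% and 9.86% of coding promoter summits. The DRE core was at 6 and 7 (against 36.6% and 47.3%) and E2F words at 3 and 3 (against 3.42% and 5.91%). The GAGA word was at 1 and 1 (against 22.5% and 35.5%) and the E-box at 1 and 1 (against 2.14% and 3.71%). In promoters of 500 bp before to 100 bp after the TSS, the GAGA word was in 13 of 43 members and the E-box in 2. The shares of all protein-coding genes there were 52.8% and 9.28%. The alternatives' construction, fewer peaks or wider windows, changes these counts. No paired analysis was possible because the design has 1 group. Depth is unknown, so a peak below threshold cannot be called absent, and with 2 replicates no single member's peak has an error of its own.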
